A study of Homo sapiens with 16 samples.

Results

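RAJI, an established line from Burkitt's lymphoma, a cancer of mature B cells, is described here gene by gene after exposure to the peptide Y518R, which binds DPY30, and to the peptide 3R, which does not. Genes were included when they reached a CPM of 10 (gene counts relative to library size, scaled between libraries by the trimmed mean of M-values, TMM) in either RAJI library. Histone genes and short non-coding RNA genes, recognised by their symbols, were left out so that polyadenylated transcripts were described. Any longer or polyadenylated transcript whose symbol starts in the same way was left out with them. The rule kept 8866 of the 23230 gene symbols in the files. The gene just inside the limit was ZBTB34, at 8.30 CPM with Y518R and 10.004 CPM with 3R, and the gene just outside was RRN3P3, at 9.95 CPM with Y518R and 8.70 CPM with 3R.

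The series holds 16 mRNA libraries, from 8 blood cancer lines with either peptide. RAJI gave 1 library with Y518R and 1 with 3R, so no difference between them has a replicate check and none has a p-value. All cells were kept in Advanced RPMI medium with 2.5% serum, and polyadenylated RNA was selected once, per the labels. The sources used here do not give the dose of the peptides or the length of exposure, and neither library stands for an untreated culture.

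DPY30 is a small subunit shared by the SET1 and MLL complexes, which place methyl groups on lysine 4 of histone H3 at active promoters. RAJI cells carry Epstein-Barr virus, whose latent membrane protein switches on NF-kappaB signalling in B cells, and they depend on a translocated MYC gene. NF-kappaB is held back by inhibitors that it induces itself, such as NFKBIA and TNFAIP3. Interferon acts through transcription factors that bind a short promoter motif in the genes it induces.

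The libraries held 19398253 gene counts with Y518R and 19354300 with 3R, the lowest depths of a series that reached 43003124. Reads that fell in no annotated gene made up 23.4% with Y518R and 44.7% with 3R, while the 14 libraries of the other lines ranged from 17.7% to 26.9%, so the 3R library stood apart. Histone genes, left out by the rule, summed to 90.1 CPM with Y518R and 364 CPM with 3R. The part of these differences in the results below was not tested, and with 1 library a peptide the pair cannot be examined without the 3R library. Both libraries carried the defining genes of a mature B cell: CD79A, a signalling chain of the B cell receptor, was at 554 CPM with Y518R and 551 CPM with 3R, and CD79B, its partner chain, at 453 CPM with Y518R and 485 CPM with 3R. Markers of other lineages were near the floor: all 19 myeloid markers stayed below 10 CPM, with a sum of 8.14 CPM with Y518R and 13.1 CPM with 3R, and all 19 erythroid and megakaryocyte markers did so, with 9.54 CPM with Y518R and 13.4 CPM with 3R. The 19 T cell markers summed to 19.4 CPM with Y518R and 33.7 CPM with 3R, and TCF7 and LCK alone reached 10 CPM. In bulk RNA, fewer cells that express a gene and less RNA per cell cannot be told apart.

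The pair differed mainly through genes that were lower with Y518R. With a change called at 2-fold or more, 87 genes fell, 0.981% of the 8866, and 6 rose, 0.0677%. Fell and rose mean lower and higher with Y518R than with 3R. Without an untreated culture, which of the 2 libraries departs from it cannot be told. At 1.5-fold the numbers were 328 lower genes, 3.7%, and 63 higher ones, 0.711%. The median log2 ratio, Y518R over 3R, was 0.02 over all 8866 genes, and 4092 of them, 46.2%, lay below 0. The exact 95% counting interval of the fold lay wholly past 2-fold for 38 of the 87 fallen genes and for 0 of the 6 that rose. Of the 87, 45 were under 10 CPM with Y518R and entered through the 3R library only, and 5 of the 6 were under 10 CPM with 3R. A gene that enters through 1 library had to be high there, so the counts describe this pair and nothing further. The same holds for the fallen and risen members of each list below. Their counts are to be read beside the shares over all genes: 46.2% below 0, 0.981% fallen and 0.0677% risen. Large ratios were not confined to scarce transcripts: among the 2648 genes at 100 CPM or more, 15 fell and 0 rose, beside 37 and 5 of the 1247 genes between 10 and 20 CPM.

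**Figure D1:**
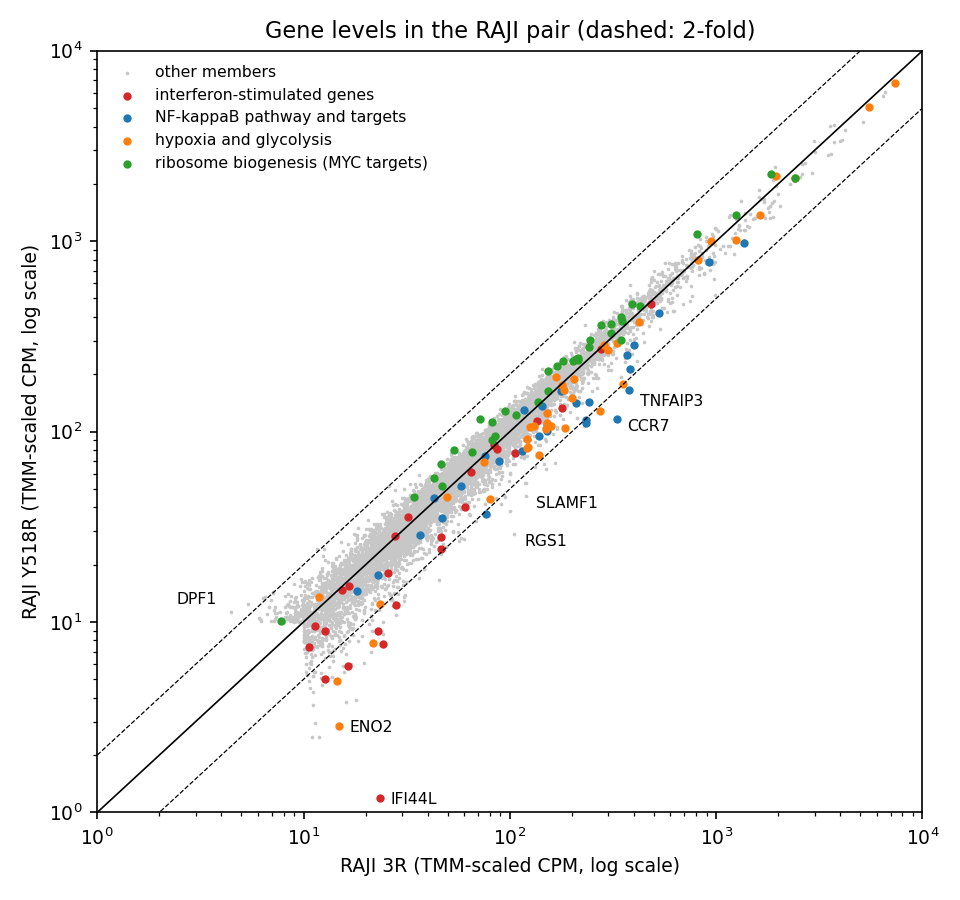
TMM-scaled CPM of the 8866 genes with Y518R (vertical axis) against 3R (horizontal axis), both on log scales, 1 point per gene, with members of 4 gene lists in colour. Dashed lines mark 2-fold. More points lie below the lower dashed line (87) than above the upper one (6), and IFI44L and ENO2 lie farthest below.

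Genes induced by interferon were lower with Y518R. Of 52 such genes listed, 25 met the rule, and 22 of these had a ratio below 0 (88.0%, beside 46.2% of all genes). By 2-fold or more, 6 fell and none rose, beside 0.981% and 0.0677% of all genes. The median log2 ratio of the 25 was -0.46, beside 0.02 over all genes. The list was chosen with earlier results of these data known. The largest fall of all 8866 genes was that of IFI44L, an interferon-induced gene next to IFI44, with 23 counts, 1.19 CPM, with Y518R and 451 counts, 23.5 CPM, with 3R. That is a log2 ratio of -4.22 and a level 19.7-fold lower, with a counting interval of 12.97 to 31.4. IFI6, a mitochondrial protein induced by interferon, was at 7.62 CPM with Y518R and 24.2 CPM with 3R (log2 ratio -1.66). SAMD9L, a restriction factor, was at 5.86 CPM with Y518R and 16.5 CPM with 3R, and XAF1, a partner of the apoptosis inhibitor XIAP, at 8.97 CPM with Y518R and 22.9 CPM with 3R. IFIT3, which binds foreign RNA with its family members, was at 5.03 CPM with Y518R and 12.8 CPM with 3R, and EPSTI1 at 12.3 CPM with Y518R and 27.9 CPM with 3R. All 6 thus stood at least 2-fold lower with Y518R. All of them but EPSTI1 were under 10 CPM with Y518R and entered through the 3R library only, where they had to be high. The other members ran from a log2 ratio of -0.95 for SOCS1, the feedback inhibitor of the pathway, to 0.15 for SP110. ISG15, a ubiquitin-like modifier, had -0.74. OAS2 (-0.26), EIF2AK2 (-0.11), ADAR (-0.05) and IFI16 (-0.02) were close to even.

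The remaining 27 genes of the list did not reach 10 CPM. The counting interval of the fold lay wholly lower with Y518R for 9 of them, wholly higher for 3 and took in an even ratio for 15. Those described here were picked out after their values were seen. IFIT1 had 0 counts with Y518R and 46 with 3R, which is at least 15.4-fold lower when 0 counts are taken to allow 3 in the library, and the exact interval, which also covers the counting error of the 3R library, reaches down to 12.04-fold. IFI44, the relative of IFI44L, had 6 counts with Y518R and 114 with 3R, a ratio 19.1-fold lower with an interval of 8.51 to 53.1. MX2, a dynamin-like antiviral GTPase, had 2 counts with Y518R and 49 with 3R, a ratio 24.6-fold lower with an interval of 6.46 to 209. IFIT2 had 76 counts with Y518R and 176 with 3R, OASL had 7 in each library, and IFIT5 had 76 with Y518R and 75 with 3R. The 3 that were higher were GBP1, a guanylate-binding GTPase, with 131 counts with Y518R and 75 with 3R, its relative GBP2 with 9 with Y518R and 1 with 3R, and BATF2 with 10 with Y518R and 0 with 3R. MX1, RSAD2 and HERC5 had at most 3 counts in either library and give no direction.

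The interferon pathway's own components were mostly lower too. Of 16 sensors, receptors and transcription factors that met the rule, 13 were below 0, with a median log2 ratio of -0.43. IRF7, the factor that amplifies type I interferon, fell to 10.9 CPM with Y518R, against 27.98 CPM with 3R (log2 ratio -1.35). IRF9, the DNA-binding factor of the type I interferon response, was at 16.4 CPM with Y518R and 30.4 CPM with 3R, under 2-fold. The receptor chains IFNAR1 (-0.13) and IFNAR2 (-0.20), the kinase JAK1 (-0.22) and the constitutive factor IRF3 (0.01) had log2 ratios nearer 0. JAK2, a kinase of the interferon-gamma and cytokine receptors that belonged to no list, fell to 13.1 CPM with Y518R, against 26.6 CPM with 3R.

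Promoters of the fallen interferon genes IFI44L, IFI6, IFIT3 and EPSTI1 are shown, picked from promoters that hold a match. Those of SAMD9L and XAF1, which also fell, are not shown. The motif bound by the interferon factors was searched as GAAANNGAAA on both strands. The window ran from 250 bases before to 50 after the start site in RefSeq (GRCh38.p14). The motif was found in 13 of 22 interferon-induced members with a promoter entry (59.1%). Of the 87 fallen genes, 63 had an entry, and 8 of these held the motif (12.7%). IFI44L, IFI6, IFIT3 and EPSTI1 count in both groups, so the 2 shares are not independent. Among genes with an entry, the motif was in 20 of 260 at least 1.5-fold lower (7.69%) and in 2 of 45 at least 1.5-fold higher (4.44%). It was in 2.86% of all 7346 members with an entry and in 3.57% of all 35116 RefSeq promoters. Capitals mark each match, or its reverse complement where the match is on the other strand, and each sequence runs in the direction of transcription. The windows are chr1:78620259-78620409 on the plus strand for IFI44L, chr1:27672251-27672373 on the minus strand for IFI6, chr10:89327816-89327909 on the plus strand for IFIT3 and chr13:42992257-42992316 on the minus strand for EPSTI1.
IFI44L: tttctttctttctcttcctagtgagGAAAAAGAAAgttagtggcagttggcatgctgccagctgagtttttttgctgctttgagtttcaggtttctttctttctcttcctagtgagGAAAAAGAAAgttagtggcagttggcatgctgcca
IFI6: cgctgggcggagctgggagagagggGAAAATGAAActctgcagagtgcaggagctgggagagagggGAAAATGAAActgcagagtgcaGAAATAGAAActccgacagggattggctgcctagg
IFIT3: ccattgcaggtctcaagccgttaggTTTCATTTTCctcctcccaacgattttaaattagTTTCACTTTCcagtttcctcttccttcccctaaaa
EPSTI1: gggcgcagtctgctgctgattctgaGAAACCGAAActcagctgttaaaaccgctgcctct
The windows of IFI44L and IFIT3 each held 2 matches, that of IFI6 held 3 and that of EPSTI1 held 1. A match describes the letters of the window and was not measured as binding.

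Genes of the NF-kappaB pathway and its targets were lower with Y518R as a group. Of 28 that met the rule, 26 were below 0, 5 fell by 2-fold or more and none rose, with a median log2 ratio of -0.49. CCR7, the chemokine receptor that guides lymphocytes to lymph nodes, had 2250 counts, 117 CPM, with Y518R and 6318 counts, 329 CPM, with 3R, which is 2.82-fold lower (interval 2.69 to 2.96). The feedback inhibitor TNFAIP3, also called A20, was at 166 CPM with Y518R and 379 CPM with 3R, 2.28-fold lower (interval 2.19 to 2.38). NFKBIA, which holds NF-kappaB in the cytoplasm, was at 115 CPM with Y518R and 235 CPM with 3R, 2.04-fold lower, with an interval of 1.94 to 2.14 that reached under 2-fold. EBI3, a cytokine subunit first found in virus-infected B cells, was at 111 CPM with Y518R and 233 CPM with 3R. BCL2A1, a survival protein, was at 37.02 CPM with Y518R and 76.4 CPM with 3R. The transcription factor subunits themselves differed less, with log2 ratios of -0.55 for RELB, -0.55 for NFKB2, -0.42 for REL, -0.11 for NFKB1 and -0.03 for RELA. The signalling adaptors TRAF2 (0.06) and TRAF3 (0.15) were the members above 0.

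Many of the same genes belong to the host genes known to be induced in B cells by latent Epstein-Barr virus, and EBI3, TRAF1 and ICAM1 stood in both lists. Of 17 such genes that met the rule, 16 were below 0 and 2 fell by 2-fold or more, with a median log2 ratio of -0.58. FCER2, the low-affinity IgE receptor CD23, was at 67.9 CPM with Y518R and 147 CPM with 3R (log2 ratio -1.11), and EBI3 was the other that fell. TRAF1 was at 212 CPM with Y518R and 382 CPM with 3R, CCL22 at 235 CPM with Y518R and 414 CPM with 3R, and CR2, the complement receptor that the virus uses for entry, at 347 CPM with Y518R and 537 CPM with 3R. Each of these was lower by less than 2-fold. RBPJ, the DNA-binding partner of a viral nuclear antigen, had a log2 ratio of 0.03. Viral transcripts were not analysed here.

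Promoters of 3 fallen genes, picked from promoters that hold a match, are shown for the NF-kappaB consensus. Those of CCR7, EBI3 and BCL2A1, the other fallen members of the NF-kappaB list, are not shown, and RGS1 is not in that list. The consensus was searched on both strands in the same windows. It was found in 10 of 24 members of the NF-kappaB list with an entry (41.7%) and in 11 of the 63 fallen genes with an entry (17.5%). TNFAIP3 and NFKBIA count in both groups. Among genes with an entry, the share was 19.2% of those at least 1.5-fold lower and 13.3% of those at least 1.5-fold higher. It was 12.9% of all members with an entry and 11.3% of RefSeq promoters. TNFAIP3 and NFKBIA are the feedback inhibitors above, and RGS1 is a regulator of chemokine receptor signalling described below. The windows are chr6:137867167-137867238 on the plus strand for TNFAIP3, chr14:35404796-35404855 on the minus strand for NFKBIA and chr1:192575642-192575701 on the plus strand for RGS1, and capitals mark the matches.
TNFAIP3: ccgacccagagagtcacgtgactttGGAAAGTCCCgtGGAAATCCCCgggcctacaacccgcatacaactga
NFKBIA: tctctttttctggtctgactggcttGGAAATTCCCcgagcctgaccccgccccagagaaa
RGS1: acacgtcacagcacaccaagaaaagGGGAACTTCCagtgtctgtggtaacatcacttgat
The TNFAIP3 window held 2 matches next to each other, and the others held 1 each.

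**Figure D2:**
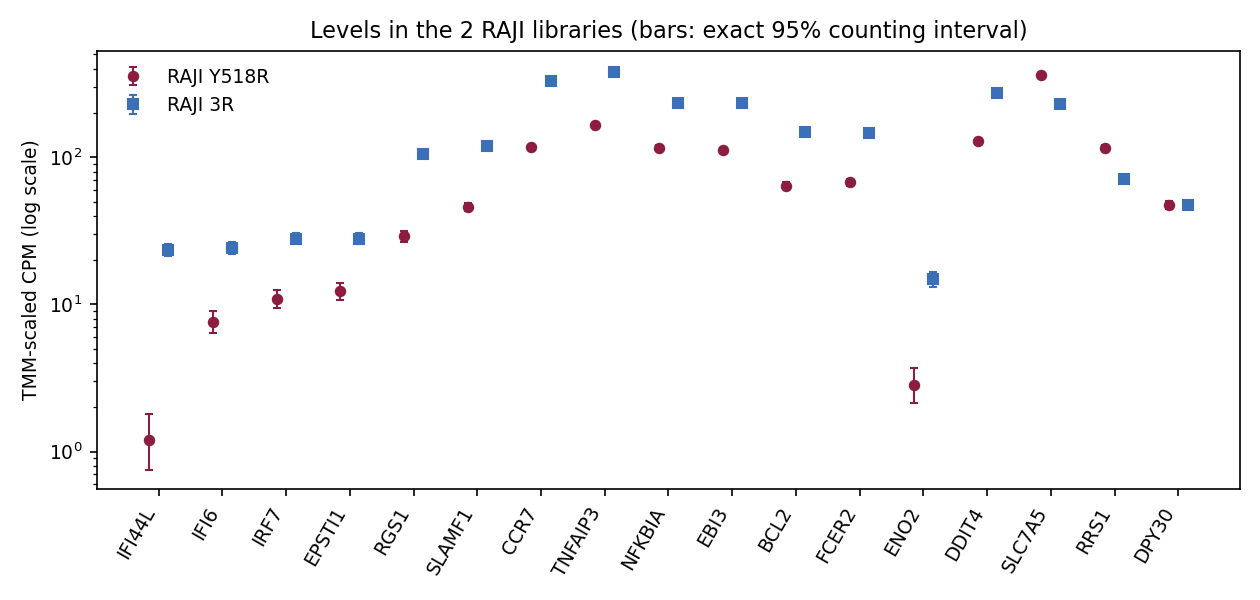
TMM-scaled CPM (log scale) of 17 genes in the Y518R library (circles) and the 3R library (squares), with exact 95% counting intervals as bars. The interval covers counting error only. From IFI44L to DDIT4 the Y518R circle lies below the 3R square, for SLC7A5 and RRS1 it lies above, and for DPY30 the levels were 47.6 CPM with Y518R and 47.2 CPM with 3R.

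Cytokines and surface receptors of activated B cells were lower with Y518R. All 10 chemokines and cytokines that met the rule were below 0, with a median log2 ratio of -0.65, and 1 of them, EBI3, fell by 2-fold. LTA, lymphotoxin alpha, was at 29.6 CPM with Y518R and 56.2 CPM with 3R, and IL10, an anti-inflammatory cytokine, at 10.4 CPM with Y518R and 16.3 CPM with 3R. Of 14 chemokine and other G protein-coupled receptors or receptors for related ligands, 11 were below 0 (78.6%, beside 46.2% of all genes). By 2-fold or more, 3 fell, beside 0.981% of all genes. Besides CCR7 these were CNR2 and CXCR7 (ACKR3). CNR2, a cannabinoid receptor of immune cells, was at 7.05 CPM with Y518R and 15.2 CPM with 3R. It entered through the 3R library only. CXCR7, a scavenger of CXCL12, was at 36.8 CPM with Y518R and 73.98 CPM with 3R. GPR183, which positions activated B cells in the follicle, had a log2 ratio of -0.96, and CXCR4 of -0.11. LPAR5, a lysophosphatidic acid receptor, was higher, at 13.1 CPM with Y518R and 6.98 CPM with 3R, under 2-fold. Of 17 cytokine receptors, 12 were below 0 and none fell by 2-fold, with a median log2 ratio of -0.40.

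Regulators of lymphocyte signalling at the membrane included RGS1 and SLAMF1. Together with IFI44L these had been chosen as markers of the RAJI pair from earlier results of these data. RGS1, which shortens signalling from chemokine receptors in B cells, had 561 counts, 29.1 CPM, with Y518R and 2015 counts, 105 CPM, with 3R, 3.61-fold lower (interval 3.29 to 3.97). The other 6 members of its family had log2 ratios from -0.61 for RGS3 to 0.01 for RGS14. SLAMF1 (CD150), a receptor that binds itself on neighbouring lymphocytes, had 889 counts, 46.1 CPM, with Y518R and 2293 counts, 119 CPM, with 3R, 2.59-fold lower (interval 2.40 to 2.80). SLAMF7, a relative carried by activated B cells and plasma cells, was at 27.6 CPM with Y518R and 58.1 CPM with 3R. All 6 members of the SLAM list were below 0, down to -0.60 for CD48 and -0.52 for CD84 among those short of 2-fold.

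The surface genes of mature B cells were mostly lower, while several lineage factors were near even. Of 30 that met the rule, 25 were below 0 (83.3%, beside 46.2% of all genes), with a median log2 ratio of -0.30. By 2-fold or more, 2 fell, FCER2 and FCRL4, beside 0.981% of all genes. FCRL4 was at 5.86 CPM with Y518R and 15.5 CPM with 3R and entered through the 3R library only. CD40, the receptor for T cell help, was at 142 CPM with Y518R and 242 CPM with 3R, and MS4A1 (CD20) at 1012 CPM with Y518R and 1358 CPM with 3R. The B cell transcription factors had a median of -0.04 and moved both ways, with log2 ratios from -1.09 for IRF4 to 0.997 for the highest member, just under 2-fold. IRF4, which drives plasma cell development and is itself a target of NF-kappaB, fell to 26.5 CPM with Y518R, against 56.5 CPM with 3R. PAX5 (-0.20), EBF1 (-0.04), IRF8 (-0.06) and POU2AF1 (-0.03) differed little. BCL6, the master factor of germinal centre B cells, was at 244 CPM with Y518R and 211 CPM with 3R. The 26 genes of B cell receptor signalling had a median of -0.07, with none at 2-fold.

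Antigen presentation genes of both classes were lower by less than 2-fold, apart from HLA-F. Of 16 MHC class II genes and their regulators, 14 were below 0, with a median log2 ratio of -0.43. CIITA, the switch for the class, was at 211 CPM with Y518R and 308 CPM with 3R, and HLA-DRA at 1338 CPM with Y518R and 1879 CPM with 3R. CD74, the invariant chain, lost more CPM than any other gene, with 4233 CPM with Y518R and 5145 CPM with 3R. The factors RFX5 (-0.12), RFXAP (0.03) and RFXANK (0.04), which hold the class II promoters, lay nearer 0. Among 17 class I and processing genes 13 were below 0, with HLA-F at 45.4 CPM with Y518R and 94.6 CPM with 3R and HLA-B at 486 CPM with Y518R and 749.7 CPM with 3R. Reads of near-identical HLA genes may have been split between copies, so values of single HLA genes are uncertain.

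**Figure D3:**
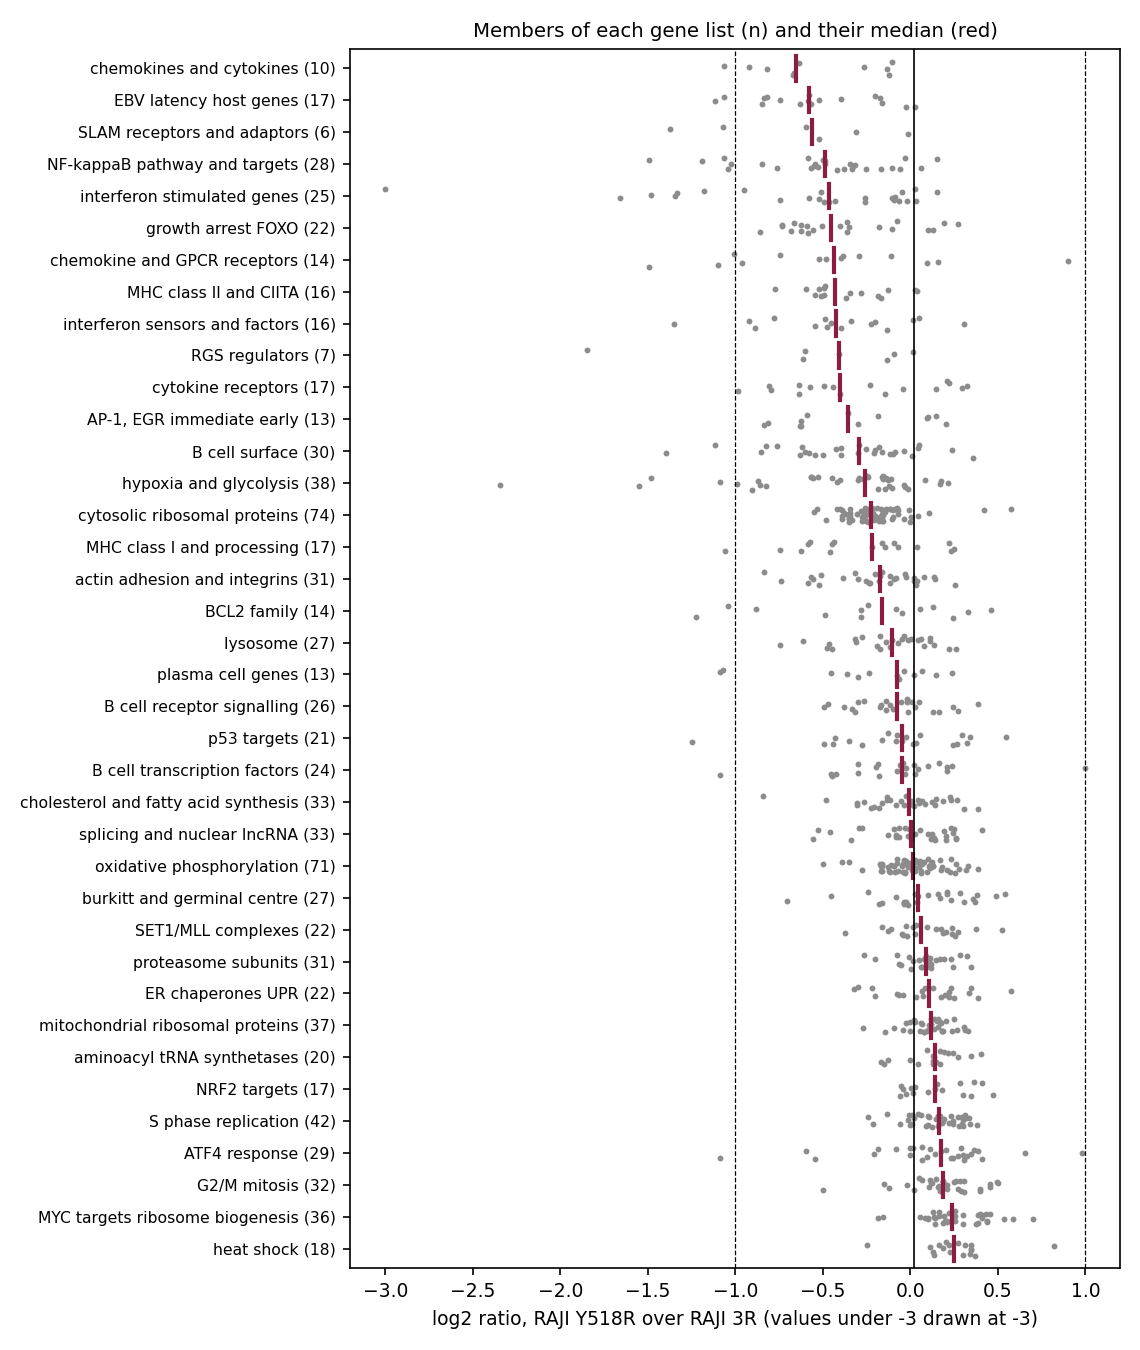
Log2 ratio, Y518R over 3R, of each member (grey points) in 38 gene lists with 6 or more members, with list medians in red, the median of all genes as a solid line and 2-fold as dashed lines. The lists are ordered from the lowest median, chemokines and cytokines (-0.65), to the highest, heat shock (0.25), and lists can share genes.

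Genes of hypoxia and glycolysis were mostly lower. Of 38, 34 were below 0 (89.5%, beside 46.2% of all genes) and 4 fell (beside 0.981% of all genes), with a median log2 ratio of -0.26. Of the 4, ENO2, BHLHE40 and P4HA2 were under 10 CPM with Y518R and entered through the 3R library only. DDIT4 reached 10 CPM in both libraries. ENO2, the neuronal form of enolase, was at 2.85 CPM with Y518R and 14.8 CPM with 3R, 5.19-fold lower (interval 3.88 to 7.06), the second largest fall of all genes. BHLHE40, a transcriptional repressor, was at 4.93 CPM with Y518R and 14.5 CPM with 3R, and P4HA2, a collagen prolyl hydroxylase, at 7.78 CPM with Y518R and 21.8 CPM with 3R. DDIT4, an inhibitor of mTORC1, was at 128 CPM with Y518R and 273 CPM with 3R. HILPDA, a lipid droplet protein induced by hypoxia that the files list as C7orf68 and that was in no list, fell to 53.9 CPM with Y518R, against 120.1 CPM with 3R. ENO1 (-0.12), LDHA (-0.16), GAPDH (-0.13) and HIF1A (-0.01) had log2 ratios near 0, and VEGFA had -0.14. The core ACGTG was searched in the same promoter windows on both strands. It was present in 17 of 33 members of the list with an entry (51.5%). In the MYC target and ribosome biogenesis list, which lay above 0, it was in 18 of 29 (62.1%). The shares were 30.2% of the 63 fallen genes with an entry and 29.1% of all members with an entry.

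Genes of growth arrest were mostly lower, while those of cell survival and p53 lay on both sides of 0. Of 22 genes linked to growth arrest or to FOXO factors, 18 were below 0 and none fell by 2-fold, with a median log2 ratio of -0.45. MXI1, an antagonist of MYC, was at 44.1 CPM with Y518R and 80.1 CPM with 3R, and CCNG2, an atypical cyclin of resting cells, at 67.2 CPM with Y518R and 106 CPM with 3R. In the BCL2 family, 9 of 14 members were below 0 and 2 fell, with a median of -0.16. BCL2 was at 63.98 CPM with Y518R and 149 CPM with 3R, 2.33-fold lower (interval 2.18 to 2.50), and BCL2A1 is described above. MCL1 (-0.28) and BCL2L11 (-0.08), which encodes the killer protein BIM, differed less, and BIK, another killer protein, was higher at 43.03 CPM with Y518R and 31.3 CPM with 3R. Of 21 targets of p53, 12 were below 0 (57.1%, beside 46.2% of all genes). Among them 1 fell, TP53INP1, at 8.97 CPM with Y518R and 21.4 CPM with 3R, and it entered through the 3R library only. Of 13 early response genes of the AP-1 and EGR kind, 9 were below 0, among them EGR1 (-0.81), DUSP2 (-0.84) and JUNB (-0.63).

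Growth genes shifted the other way, by small amounts. Of 36 MYC targets and ribosome biogenesis genes, 34 were above 0 and none reached 2-fold, with a median log2 ratio of 0.24. RRS1, which assembles the large ribosomal subunit, was at 116 CPM with Y518R and 71.5 CPM with 3R, NME1, a nucleoside diphosphate kinase, at 80.3 CPM with Y518R and 53.5 CPM with 3R, and nucleolin (NCL) at 2259 CPM with Y518R and 1836 CPM with 3R. MYC itself was at 459 CPM with Y518R and 428 CPM with 3R, a log2 ratio of 0.10. The motif CACGTG, which MYC recognises and which contains ACGTG, was in 12 of 29 promoters of this list (41.4%). It was in 11.3% of all members with a promoter entry. Of 18 heat shock genes 17 were above 0, with a median of 0.25, from 0.82 for the inducible chaperone HSPA1B to -0.25 for DNAJB4. HSPA1B shares near-identical sequence with HSPA1A, so its value is uncertain.

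Genes of DNA replication and mitosis and of amino acid supply lay above 0 more often than below. Of 42 S phase genes 35 were above 0 (median 0.16), with MCM4, a helicase subunit, at 771 CPM with Y518R and 592 CPM with 3R. Of 32 mitosis genes 28 were above 0 (median 0.19), with PLK1, a mitotic kinase, at 196 CPM with Y518R and 139 CPM with 3R, and BUB1, a spindle checkpoint kinase, the other way at 212 CPM with Y518R and 299 CPM with 3R. Among 29 genes of the ATF4 response 21 were above 0 and 1, DDIT4, fell (median 0.17). SLC7A5, the large neutral amino acid transporter, was at 364 CPM with Y518R and 231 CPM with 3R, and TRIB3, a pseudokinase induced by ATF4, at 14.2 CPM with Y518R and 7.14 CPM with 3R. ATF4 (0.11) and DDIT3 (0.00) were near even, and 16 of 20 aminoacyl-tRNA synthetases were above 0 with a median of 0.14. None of the genes in these lists rose by 2-fold.

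Cytosolic ribosomal protein genes went against the ribosome biogenesis genes. Of 74 that met the rule, 69 were below 0, none by 2-fold, with a median log2 ratio of -0.23. RPS6 was at 2858 CPM with Y518R and 3598 CPM with 3R, and RPL3 at 3399 CPM with Y518R and 4087 CPM with 3R. Mitochondrial ribosomal proteins had a median of 0.12, proteasome subunits of 0.09 and respiratory chain genes of 0.02. Ribosomal protein genes have many pseudogene copies, so single values are uncertain.

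The target of the peptide was even between the libraries at the RNA level, and the genes of its complexes lay on both sides of 0 with none at 2-fold. DPY30 had 919 counts, 47.6 CPM, with Y518R and 906 counts, 47.2 CPM, with 3R, a fold of 1.01 with an interval of 0.92 to 1.11. The peptide is described as a binder of the protein, so the RNA level does not check the label. Of 22 SET1 and MLL complex genes, 14 were above 0, with a median log2 ratio of 0.06. The widest ratios were those of ASH2L, the subunit that DPY30 binds, at 38.6 CPM with Y518R and 50.02 CPM with 3R, and SETD1B, a methyltransferase, at 32.4 CPM with Y518R and 22.5 CPM with 3R.

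The 6 genes that rose had low levels in both libraries and belonged to none of the lists. DPF1, a subunit of chromatin remodelling complexes, had 217 counts with Y518R and 85 with 3R, 2.54-fold higher (interval 1.97 to 3.30). FAM98C was at 12.4 CPM with Y518R and 5.37 CPM with 3R, ACVR1B, an activin receptor, at 13.4 CPM with Y518R and 6.36 CPM with 3R, and CLEC7A, the beta-glucan receptor dectin-1, at 24.2 CPM with Y518R and 11.6 CPM with 3R. ZNF642 (ZFP69), a zinc finger protein, was at 13.5 CPM with Y518R and 6.51 CPM with 3R, and TXNDC5, a disulphide isomerase, at 14.4 CPM with Y518R and 7.09 CPM with 3R. Each interval reached under 2-fold.

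Of the 87 fallen genes, 28 belonged to a list, and the rest were outside all of them. GAB3, an adaptor of receptor signalling, was at 2.49 CPM with Y518R and 10.9 CPM with 3R, and LRRC32 (GARP), which holds latent TGF-beta on the cell surface, at 2.96 CPM with Y518R and 11.4 CPM with 3R. TCF7, a factor of Wnt signalling and a T cell marker in the lists, had 75 counts with Y518R and 346 with 3R, 4.64-fold lower (interval 3.60 to 6.03), and LCK, the other T cell marker above the limit, had a log2 ratio of -0.02. SPOCK2, a matrix proteoglycan, was at 6.12 CPM with Y518R and 19.5 CPM with 3R. Among more abundant genes, DUSP22, a phosphatase, was at 107 CPM with Y518R and 230.0 CPM with 3R, SRGN, the granule proteoglycan serglycin, at 68.7 CPM with Y518R and 165 CPM with 3R, and GATM, which makes a precursor of creatine, at 38.4 CPM with Y518R and 101 CPM with 3R. The last 3 and HILPDA, JAK2 and GADD45B (41.5 CPM with Y518R and 90.9 CPM with 3R) were picked out after their values were seen.

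Of 103 long non-coding RNAs among the members, 63 were below 0 (61.2%, beside 46.2% of all genes), with a median log2 ratio of -0.13. Of the 87 fallen genes, 4 were among these 103, beside 0.981% fallen of all genes. The 4 were LOC63930 (LINC01749), LOC284749 (LINC00494), LOC100505746 (ITGB2-AS1) and LOC115110 (TNFRSF14-AS1). LOC63930 was at 2.49 CPM with Y518R and 11.9 CPM with 3R, and LOC100505746 at 3.78 CPM with Y518R and 16.2 CPM with 3R. LOC115110 was at 5.44 CPM with Y518R and 15.8 CPM with 3R. All but LOC284749 were under 10 CPM with Y518R and entered through the 3R library only. ITGB2 and TNFRSF14, the genes that the antisense RNAs are named for, were at 94.5 and 36.4 CPM with Y518R and at 136 and 63.98 CPM with 3R. Whether reads were counted by strand is not stated in the sources used, so reads of an antisense RNA and its partner cannot be told apart. The fallen genes had a median exonic length of 5051 bases, beside 5308 over all members. Their median span on the genome was 23407 bases, beside 30995 over all members.

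The same ratio was read in the other 7 lines as values side by side, without a test of any difference from RAJI. Y518R gave 0 genes 2-fold higher and 0 lower in P493-6, a line that models Burkitt's lymphoma, each 0% of 9275 genes. MOLM13 had 38 higher, 0.396%, and 22 lower, 0.229%, of 9588, and THP1 had 210 higher, 2.15%, and 75 lower, 0.769%, of 9747. The remaining 4 lines had at most 2 in either direction. IFI44L was at 240.3 CPM with Y518R and 256 CPM with 3R in P493-6 and at 45.2 CPM with Y518R and 8.12 CPM with 3R in THP1, and it was under 1 CPM in the other 5. RGS1 was under 10 CPM in both libraries of P493-6 and THP1, and so was SLAMF1. Of the 87 genes that fell in RAJI, 42 reached 10 CPM in P493-6, where 22 were below 0 and none fell or rose by 2-fold. In THP1 47 reached 10 CPM, of which 13 were below 0, none fell and 8 rose by 2-fold. Among those at 10 CPM, 28 of 45 were below 0 in MOLM13, 27 of 43 in RS4-11 and 24 of 36 in JURKAT. The numbers were 20 of 43 in KOPN8 and 8 of 30 in K562, and none fell by 2-fold in any of these lines. The median of the interferon-induced genes was -0.46 in RAJI, 0.00 in P493-6 and 1.10 in THP1, and that of the NF-kappaB genes was -0.49 in RAJI, -0.02 in P493-6 and 0.13 in THP1, over the RAJI members at 10 CPM or more in each line. The MYC target and ribosome biogenesis list, at 0.24 in RAJI, ran from -0.10 in THP1 to 0.36 in MOLM13. Growth arrest genes, at -0.45 in RAJI, ran from -0.40 in MOLM13 to 0.06 in RS4-11. Cytosolic ribosomal proteins, at -0.23 in RAJI, ran from -0.47 in THP1 to 0.30 in MOLM13.

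**Figure D4:**
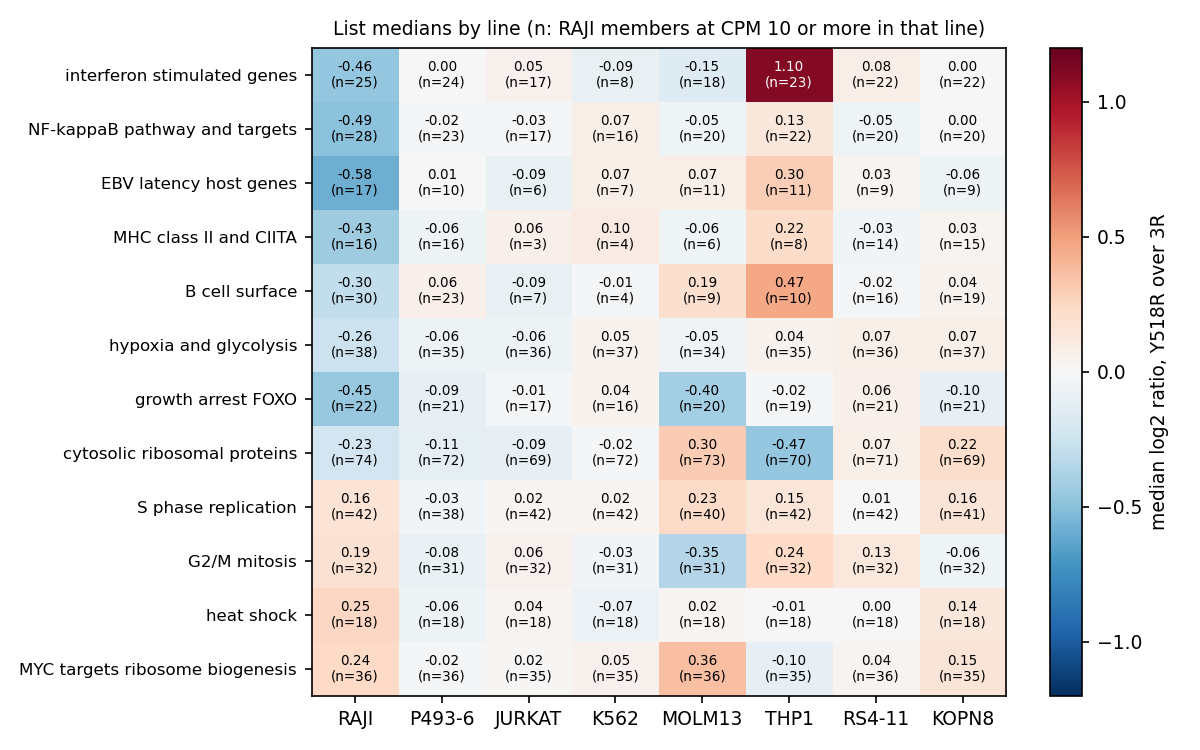
Median log2 ratio, Y518R over 3R, of 12 gene lists (rows) in the 8 lines (columns), over the RAJI members of the list at 10 CPM or more in that line, whose number n stands in each cell. Blue cells are lower and red cells higher with Y518R. The interferon list is at -0.46 in RAJI and 1.10 in THP1, and each line is 1 pair of libraries.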

How the data were processed

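The authors deposited counts: whole numbers of reads per gene symbol, not normalized, for 23230 symbols in each of 16 libraries. Tools in the submitters' processing notes are HTSeq 0.6.1, TopHat2 2.1.1, CASAVA 1.8.4, DESeq and DESeq2 3.0, and builds are GRCh38 and hg19, without a role for any of them, so which build lies behind the counts is unknown here. Entries that name no gene were kept out of library sizes. Groups (line and peptide) came from the labels.

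Counts were scaled with TMM factors over all 16 libraries (edgeR 4.0.16, R 4.3.3), which were 0.994 for RAJI Y518R and 0.992 for RAJI 3R. Log2 ratios are Y518R over 3R with a prior count of 2. Folds in the text are ratios of scaled counts, with exact 95% Clopper-Pearson intervals (scipy 1.17.1). A count of 0 allows 3 counts, or 0.156 CPM. Intervals and floors cover counting error only, since without molecular identifiers reads may repeat a molecule. No test across samples was possible within the line, and single genes were called at 2-fold.

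The members and the 43 gene lists, with 1320 entries, were chosen with earlier results of these data known. Genes were named if they were markers or DPY30, had one of the 15 highest or 15 lowest ratios, one of the 5 largest gains or losses in CPM, or were past 2-fold or among the 4 widest ratios of a list; other genes give a list's range and pathway parts, and some genes are not reported here. Promoter sequences and current symbols came from RefSeq (GRCh38.p14), where 7346 of 8866 members had a promoter entry. The ratio and interval steps were tested on simulated counts with known folds and counting error only. The scaling, the lists and the motif search were not tested in this way. Alternatives covered scaling (DESeq2 1.42.0 size factors among them), the CPM limit, the prior count, the genes left out and the fold.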

Additional observations from a re-analysis of the deposited data

How the results depend on the processing

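The number of genes at 2-fold moved with the limits more than with the scaling. With a CPM minimum of 1 it was 81 higher and 408 lower, with a minimum of 5 it was 11 and 135, and with a minimum of 20 it was 1 and 50. With 10 CPM required of the mean of the pair it was 3 higher and 67 lower. When the whole counting interval had to lie past 2-fold, 0 higher and 38 lower genes were left, and at a fold of 1.5, chosen after seeing the data, there were 63 and 328. Under the other scalings, prior counts, gene sets and length centring, the counts stayed between 5 and 8 higher and between 73 and 101 lower genes. Under those that kept the CPM minimum, at least 70 of the 87 fallen genes were shared with the main result. Of 1439 recomputed ratios of named genes, 32 lay outside the counting interval of the reported fold. Of the 336 that belonged to genes past 2-fold, none changed sign and 3 no longer reached 2-fold, those of CXCR7, CNR2 and TXNDC5. Of 559 recomputed list medians, 554 lay within 0.1 of the reported value, and the interferon median ranged from -0.49 to -0.40. The other 5 belonged to the T cell markers (from -1.12 to -0.02, with 2 members at the reported limit), the AP-1 and EGR genes (down to -0.47) and the metallothionein list (down to 0.15). The medians of cholesterol synthesis, splicing and respiratory chain genes, all near 0, changed sign in 5 cases as well. No paired analysis was possible because each peptide had 1 RAJI library. For the same reason a left-out library leaves no pair, and the depth limits ratios of genes near 10 CPM.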

Other observations

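Several more gene groups were measured in RAJI. The 27 genes of Burkitt lymphoma and the germinal centre had a median log2 ratio of 0.04, with MYBL1, a germinal centre factor, at 171 CPM with Y518R and 122 CPM with 3R and SERPINA9, a germinal centre protease inhibitor, at 85.3 CPM with Y518R and 139 CPM with 3R. The median was -0.01 for 33 cholesterol and fatty acid synthesis genes, 0.00 for 33 splicing genes and nuclear long non-coding RNAs, 0.11 for 22 chaperones of the endoplasmic reticulum, 0.14 for 17 NRF2 targets, -0.10 for 27 lysosomal genes, -0.17 for 31 actin and adhesion genes, of which 23 were below 0, and -0.08 for 13 plasma cell genes, of which IRF4 and SLAMF7 fell. MALAT1, a nuclear RNA, was at 469 CPM with Y518R and 689 CPM with 3R, and NEAT1, the scaffold of paraspeckles, at 302 CPM with Y518R and 382 CPM with 3R. Only 2 of 12 genes of the metallothionein list met the rule, the regulator MTF1 and the zinc exporter SLC30A1, and both were above 0.

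Among the histone genes left out by the rule, HIST1H1B had 0.104 CPM with Y518R and 16.8 CPM with 3R, and HIST1H2BK had 38.2 CPM with Y518R and 50.1 CPM with 3R. Among markers of other lineages, the embryonic globin HBE1 had 15 counts with Y518R and 61 with 3R, and CD3D had 1 count with Y518R and 2 with 3R.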
